A study of Mus musculus with 14 samples.

Results

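The genes described here are 34 genes of the lysosome, chosen by name, with earlier results of these data known. They include 3 TFEB factors, 8 proteins of the lysosomal membrane or of sterol and ion transport, and 7 proteases. The others are 8 glycosidases, 3 sulfatases (a sulfamidase among them) and 5 enzymes or activators of lipid breakdown. All 34 were among the 24015 gene symbols of the count table, and 34 of 34 passed the filter on low counts, among 15666 genes tested. RNA was sequenced from fibroblasts of 129s2 mouse embryos of day 14.5, connective-tissue cells cultured for 3 to 4 passages. The 14 libraries fall into 4 groups: 4 wild-type libraries from cells kept in normal medium (WT-NT), 3 wild-type libraries from cells without glucose for 18 hours (WT-GS), 4 libraries of SirT7-/- cells from normal medium (KO-NT) and 3 of SirT7-/- cells without glucose (KO-GS). SirT7 is an NAD-dependent enzyme of the sirtuin family, and the question is how its loss bears on the cells' response to glucose starvation. A name such as WT-NT 2 gives the group and the labelled replicate. The labels do not tie replicates to separate cultures or embryos, and p-values then measure only the spread between these samples.

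The lysosome is the acidic compartment in which cells break down proteins, glycans and lipids brought in by endocytosis and autophagy. Its genes share a palindromic promoter element built around the E-box letters CACGTG, which the basic helix-loop-helix factors TFEB, TFE3 and MITF bind. When nutrients run short and the kinase mTORC1 is inactive, these factors are known to move from the cytoplasm to the nucleus, a step that RNA levels do not show.

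Total counts per library ran from 59788270 to 91607861. Sirt7 stood at 0.301 to 1.41 CPM (counts relative to the sum of all counts in the library) in the libraries labelled SirT7-/- and at 16.9 to 23.1 CPM in wild type. All 10 fibroblast markers examined were detected, and their summed level was 47382 to 55461 CPM in WT-NT, 25860 to 27898 CPM in WT-GS, 47219 to 54238 CPM in KO-NT 1 to 3 and 26547 to 27809 CPM in KO-GS 1 and 2. The library labelled KO-NT 4 had 29810 CPM and the library labelled KO-GS 3 had 46583 CPM for that sum, and its part in the members' changes was not tested. The medium labels were less uniform. Hspa5, the chaperone BiP of the endoplasmic reticulum, stood at 1437 to 1556 CPM in WT-NT 1 to 3 and KO-NT 1 to 3 and at 5654 to 7435 CPM in WT-GS 1 to 3 and KO-GS 1 and 2. The library labelled KO-NT 4 had 6333 CPM, the library labelled KO-GS 3 had 1066 CPM, and WT-NT 4 had 1065 CPM. The position of each library was also read along 5096 genes called between the wild-type groups when fitted alone, with all listed lysosomal genes left out, so that 0 is the mean of WT-NT and 1 the mean of WT-GS. WT-NT 4 was part of WT-NT in that choice of genes, which partly sets its position. On that scale the library labelled KO-NT 4 lay at 0.847, the library labelled KO-GS 3 at 0.183 and WT-NT 4 at 0.111, against -0.081 to 0.062 for the other libraries in normal medium and 0.869 to 1.04 for the others without glucose. Whether these libraries carry the right labels was not tested. Tests use the groups as labelled, with further fits that leave out KO-NT 4 and KO-GS 3 (2 libraries), or WT-NT 4 in addition (3 libraries). They were left out after their values were seen, so calls made without them are partly set by that choice, and KO-GS then has 2 libraries.

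Promoter letters are shown for the members called in wild-type starvation that have a single promoter in RefSeq (GRCm38.p6, used for sequence only), since 3 of them rose and 2 fell. Each line gives the 250 bases before the annotated start, 5′ to 3′ on the gene's strand, with CACGTG in capitals. Lamp1 is at chr8:13158911-13159160 (plus strand), Mcoln1 at chr8:3500269-3500518 (plus), Ctsl at chr13:64370521-64370770 (minus), Gusb at chr5:130003050-130003299 (minus) and Arsb at chr13:93771429-93771678 (plus).
Lamp1: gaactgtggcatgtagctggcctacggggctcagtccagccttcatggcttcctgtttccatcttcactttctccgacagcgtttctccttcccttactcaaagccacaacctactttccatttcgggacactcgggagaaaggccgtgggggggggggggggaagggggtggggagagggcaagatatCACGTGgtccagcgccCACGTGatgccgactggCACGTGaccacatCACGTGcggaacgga
Mcoln1: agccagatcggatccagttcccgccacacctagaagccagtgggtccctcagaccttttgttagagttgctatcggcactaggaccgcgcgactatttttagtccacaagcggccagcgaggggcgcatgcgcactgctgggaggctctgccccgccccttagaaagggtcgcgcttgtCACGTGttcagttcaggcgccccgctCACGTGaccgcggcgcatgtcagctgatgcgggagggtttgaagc
Ctsl: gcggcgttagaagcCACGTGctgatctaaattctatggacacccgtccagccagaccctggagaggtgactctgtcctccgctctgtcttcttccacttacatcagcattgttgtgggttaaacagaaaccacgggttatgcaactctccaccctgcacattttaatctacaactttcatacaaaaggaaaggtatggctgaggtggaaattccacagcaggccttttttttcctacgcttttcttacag
Gusb: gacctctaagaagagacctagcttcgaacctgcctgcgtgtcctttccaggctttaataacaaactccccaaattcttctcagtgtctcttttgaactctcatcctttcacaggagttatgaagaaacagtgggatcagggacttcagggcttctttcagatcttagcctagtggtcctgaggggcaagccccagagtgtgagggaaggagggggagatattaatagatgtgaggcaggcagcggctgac
Arsb: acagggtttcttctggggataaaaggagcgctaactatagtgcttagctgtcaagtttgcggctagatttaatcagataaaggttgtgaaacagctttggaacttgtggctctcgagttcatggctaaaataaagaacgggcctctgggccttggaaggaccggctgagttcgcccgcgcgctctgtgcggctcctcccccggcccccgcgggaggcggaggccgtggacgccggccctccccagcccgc
The Lamp1 promoter holds 4 copies of CACGTG, whose first bases lie at -61, -45, -28 and -15 from the start. Mcoln1 holds 2, at -71 and -45, and Ctsl holds 1, at -236. Gusb and Arsb hold 0 in these letters. A match describes the letters only, and its absence says nothing about binding of a factor.

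Windows from 250 bases before to 50 bases after the start were searched for all members. RefSeq promoters were matched for 31 of the 34 members, Npc1, Asah1 and Ctsb being without an entry. CACGTG, a palindrome read alike on both strands, was found in 12 of 31 members (38.7%), namely Lamp1, Mcoln1, Cln3, Ctsa, Ctsd, Ctsl, Gla, Glb1, Gaa, Naglu, Arsa and Sgsh. It was found in 8.09% of all 27025 genes in the promoter table, or in 7.15% of 32851 promoters. The longer TCACGTGA, which contains it, was found in Mcoln1, Cln3, Ctsa, Ctsd and Gla, or 16.1% of members, against 1.12% of all genes. The full CLEAR element, which is TCACGTGA with G before it and C after it, was found in Cln3 alone of the members (3.23%), against 0.37% of all genes.

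**Figure D1:**
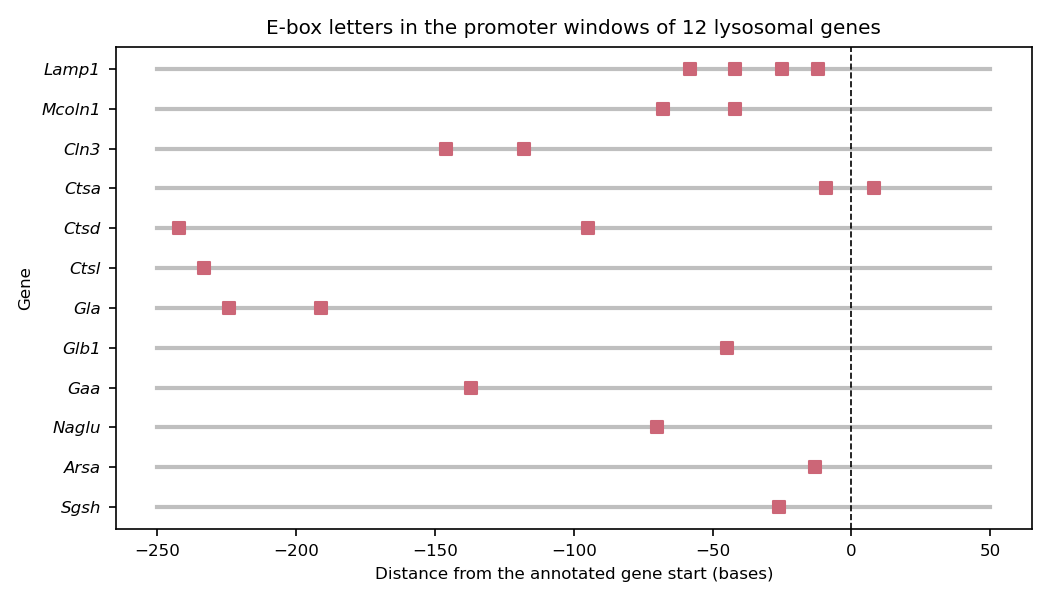
Position of CACGTG, as the distance in bases of its middle from the annotated gene start, in the promoter windows of the 12 members that hold it, with the window as a grey line. Lamp1 has 4 copies close to its start, Mcoln1, Cln3, Ctsa, Ctsd and Gla have 2 each, and the other members shown have 1.

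Levels per length differed widely among the members. Over all 14 libraries, the mean CPM per kilobase of annotated exon (GENCODE annotation of another build than the table) was 606 for Ctsd, the main aspartic protease of the lysosome, 468 for Psap, the precursor of the saposins that help sphingolipid enzymes, and 428 for Lamp1, a glycoprotein that lines the membrane. Tfeb, the regulator after which the pathway is named, was the lowest at 0.647 CPM per kilobase. Mitf stood at 1.94, Cln3 at 1.86 and Tfe3 at 6.59 CPM per kilobase.

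The first comparison asks how wild-type fibroblasts set these genes after 18 hours without glucose. Of the 34 members, 5 rose (Lamp1, Mcoln1, Npc1, Ctsl and Asah1) and 3 fell (Tfeb, Gusb and Arsb), 8 in all, at an adjusted p under 0.05. Over all genes tested, 25.9% were called, 12.9% higher and 13.1% lower, so the members' share was close to that background. The counts by role given below stand beside these same shares. The members' median log2 change was 0.19, against -0.039 over all genes, and 22 of 34 members had a change above 0. Libraries did not overlap between WT-GS and WT-NT for 6 members that were higher and 4 that were lower, where 19.9% and 24.8% of all genes did not overlap in these directions. Against WT-NT 1 to 3 alone, 17 members were higher and 5 lower without overlap, where 27.5% and 30.3% of all genes were.

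**Figure D2:**
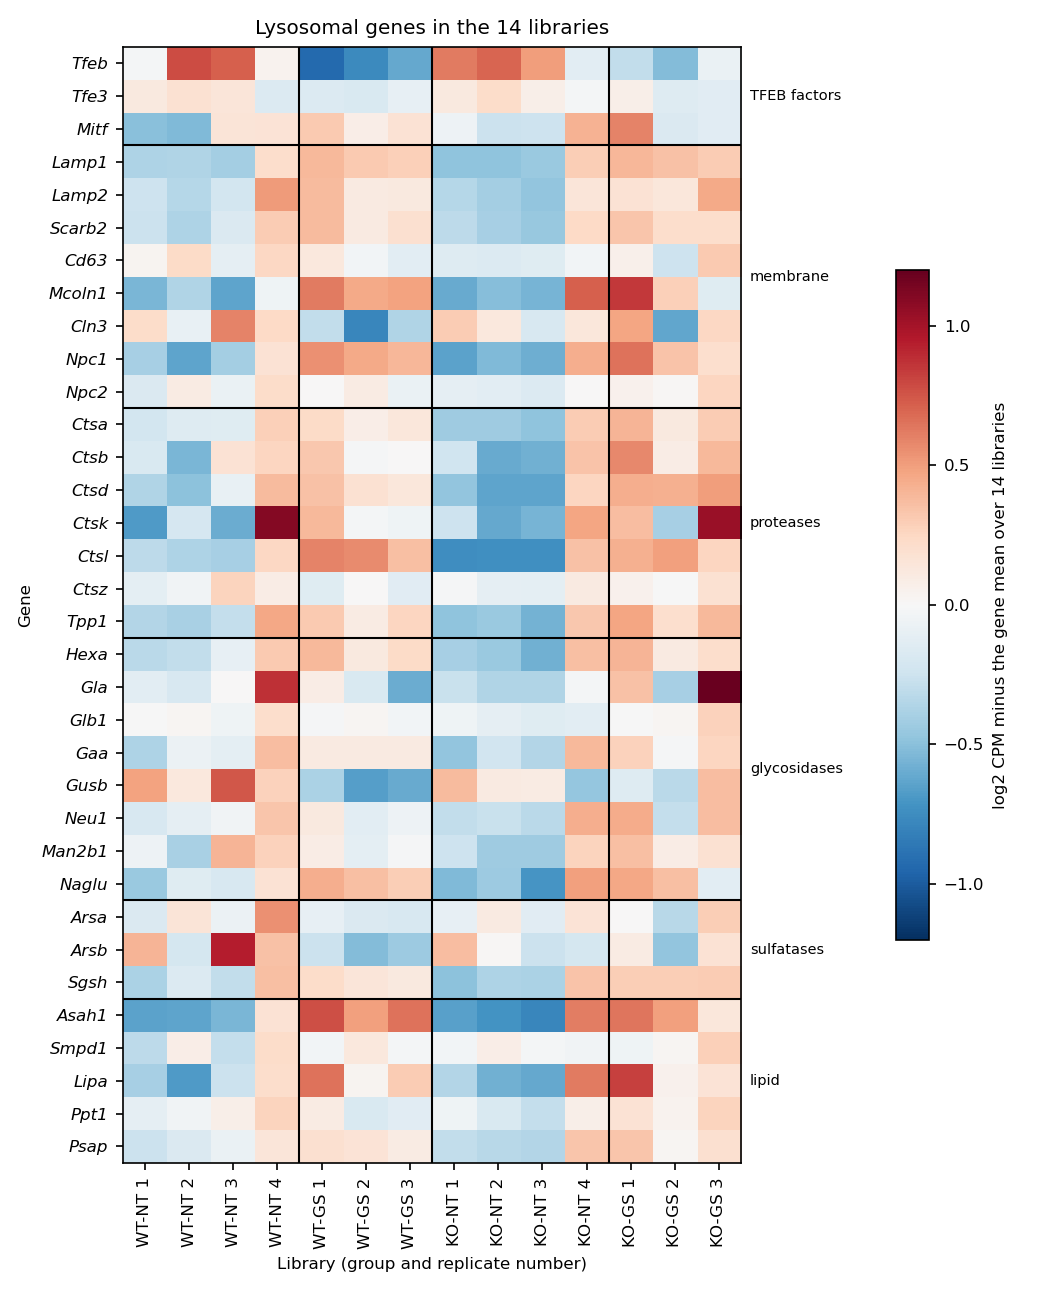
Level of each of the 34 members in each of the 14 libraries, as log2 CPM minus the gene's mean over the libraries (colour), with genes ordered by role and libraries by group. Red in WT-GS against blue in WT-NT 1 to 3 marks members such as Lamp1, Mcoln1, Npc1, Ctsl and Asah1, Tfeb and Gusb show the opposite, and WT-NT 4 and the library labelled KO-NT 4 are mostly red.

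Among the TFEB factors, Tfeb fell while Tfe3 and Mitf were not called. Tfeb stood at 3.35, 5.87, 5.59 and 3.49 CPM in WT-NT 1 to 4 and at 1.78, 2.01 and 2.22 CPM in WT-GS 1 to 3. Every WT-GS library was below every WT-NT library. Tfeb fell by 1.15 on the log2 scale (SE 0.27), to 0.451 times its level in normal medium (edgeR quasi-likelihood test, adjusted p = 0.0245).

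Tfe3, the more abundant of these factors per length, stood at 65.7, 68.9, 67.2 and 54.2 CPM in WT-NT 1 to 4 and at 54.2, 53.6 and 56.8 CPM in WT-GS 1 to 3. WT-NT 4 lay among the starved libraries and the other 3 above them. Its log2 change was -0.18 (SE 0.10; adjusted p = 0.187, edgeR). Mitf, best known as the melanocyte factor, stood at 8.29, 8.11, 13.1 and 13.2 CPM in WT-NT 1 to 4 and at 14.6, 12.4 and 13.3 CPM in WT-GS 1 to 3. WT-NT 3 and 4 fell within the range of the starved libraries, and the log2 change was 0.38 (SE 0.24; adjusted p = 0.236, edgeR). Of 6 melanocyte markers 1 reached 1 CPM in any library, Dct and Tyr were at 0 in every library, and the 6 summed to 1.40 to 5.48 CPM.

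Among the 8 membrane proteins and transporters 3 rose, 0 fell and 5 were not called, with a median log2 change of 0.33. Lamp1 stood at 860.5, 867, 836 and 1284 CPM in WT-NT 1 to 4 and at 1449, 1382 and 1356 CPM in WT-GS 1 to 3. WT-NT 4 was far above the other WT-NT libraries and still below every starved one. Lamp1 rose by a log2 change of 0.58 (SE 0.19) (edgeR adjusted p = 0.0444).

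Mcoln1, the calcium channel of the lysosomal membrane, stood at 29.2, 33.1, 27.4 and 41.0 CPM in WT-NT 1 to 4 and at 65.5, 58.4 and 59.5 CPM in WT-GS 1 to 3. The groups did not overlap, and it rose by 0.95 (SE 0.31) on the log2 scale, 1.93-fold (edgeR adjusted p = 0.0407). Npc1, the membrane protein that exports cholesterol from the lysosome, stood at 86.7, 73.6, 86.5 and 129 CPM in WT-NT 1 to 4 and at 168, 157 and 151 CPM in WT-GS 1 to 3. Again WT-NT 4 was the highest of its group and below the starved libraries. The rise of Npc1 was 0.80 (SE 0.25) on the log2 scale, 1.74-fold (edgeR adjusted p = 0.0368).

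The other membrane members were not called. Npc2, the soluble partner that hands cholesterol to Npc1, stood at 367 ± 44.3 CPM (mean ± SD, n = 4) in WT-NT and 363 ± 22.6 CPM (n = 3) in WT-GS, a log2 change of 0.029 (SE 0.10). The difference between the changes of Npc1 and Npc2 was not tested. Lamp2, the second abundant glycoprotein of the membrane, stood at 531 ± 163 CPM in WT-NT against 627 ± 69.1 CPM in WT-GS, with its highest value of all libraries, 774 CPM, in WT-NT 4. Scarb2, which carries glucocerebrosidase to the lysosome, stood at 81.8 ± 18.2 and 103 ± 9.89 CPM in these groups, and the tetraspanin Cd63 at 783 ± 90.7 and 724 ± 64.7 CPM. Cln3, the membrane protein altered in juvenile Batten disease, stood at 12.5 ± 2.44 CPM in WT-NT against 7.53 ± 1.29 CPM in WT-GS, with no overlap. Its log2 change of -0.68 (SE 0.24) had an edgeR adjusted p of 0.0535 and was not called.

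Of the 7 proteases 1 rose, 0 fell and 6 were not called, with a median log2 change of 0.24. Ctsl, a cysteine protease of the cathepsin family, stood at 568, 546, 537 and 840.3 CPM in WT-NT 1 to 4 and at 1071, 1044 and 909.9 CPM in WT-GS 1 to 3. WT-NT 4 was the highest of its group and below every starved library. Ctsl rose by 0.74 (SE 0.25) on the log2 scale, 1.67-fold (edgeR adjusted p = 0.0469). Ctsd stood at 1278 ± 359.9 CPM in WT-NT against 1605 ± 131 CPM in WT-GS (mean ± SD, n = 4 and 3), a log2 change of 0.37 (SE 0.23) that was not called. Ctsa, a carboxypeptidase that also shields β-galactosidase and neuraminidase, had a log2 change of 0.24 (SE 0.18), and Tpp1, a tripeptidyl peptidase, one of 0.37 (SE 0.23). The cysteine proteases Ctsb and Ctsz had log2 changes of 0.20 (SE 0.24) and -0.10 (SE 0.10). Ctsk, the collagen-degrading cathepsin, had the largest spread over the 14 libraries relative to its mean. It stood at 71.2, 99.0, 75.5 and 244 CPM in WT-NT 1 to 4 and at 149, 112 and 110.1 CPM in WT-GS 1 to 3. WT-NT 4 thus lay above every starved wild-type library for Ctsk.

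The 8 glycosidases gave 0 higher and 1 lower, with a median log2 change of 0.0029. Gusb, β-glucuronidase, stood at 126, 98.3, 150.3 and 109 CPM in WT-NT 1 to 4 and at 69.0, 56.9 and 59.1 CPM in WT-GS 1 to 3. All starved libraries were below all libraries in normal medium, WT-NT 4 included. Gusb fell by 0.93 on the log2 scale (SE 0.22), to 0.526 times its level (edgeR adjusted p = 0.0245). Naglu, which acts on heparan sulfate, stood at 22.6 ± 4.03 CPM in WT-NT against 32.0 ± 1.48 CPM in WT-GS with no overlap, a log2 change of 0.55 (SE 0.25; edgeR adjusted p = 0.108). Hexa, the α subunit of β-hexosaminidase, had a log2 change of 0.37 (SE 0.21), and Gaa, which breaks down glycogen in the lysosome, one of 0.17 (SE 0.20). Gla, α-galactosidase A, had -0.37 (SE 0.33). For Glb1, β-galactosidase, Neu1, the lysosomal sialidase, and Man2b1, the lysosomal α-mannosidase, the log2 changes were -0.0092, 0.015 and -0.054, with SE of 0.087, 0.21 and 0.19.

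Of the 3 sulfatases 0 rose and Arsb, which removes sulfate from dermatan and chondroitin sulfate, fell. Arsb stood at 89.1, 58.1, 129 and 86.1 CPM in WT-NT 1 to 4 and at 56.3, 47.0 and 49.8 CPM in WT-GS 1 to 3. WT-NT 2 lay just above the highest starved library and WT-NT 3 far above the rest. Arsb fell by 0.78 on the log2 scale (SE 0.24; edgeR adjusted p = 0.0368). Arsa, which acts on cerebroside sulfate, and Sgsh, a sulfamidase of heparan sulfate breakdown, had log2 changes of -0.25 (SE 0.17) and 0.30 (SE 0.20).

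Markers of macrophages, cells rich in lysosomes, also differed between libraries. Of 16 such markers 15 were in the table, 15 reached 1 CPM in some library and none was at 0 in every library. Their summed level was 1089, 336, 2223 and 678 CPM in WT-NT 1 to 4, 385, 13.8 and 316 CPM in WT-GS 1 to 3, 432.9 to 790.0 CPM in KO-NT and 122 to 1178 CPM in KO-GS. WT-NT 3 was the highest and WT-NT 2 the lowest of WT-NT for this sum, for Gusb and for Arsb alike. So were WT-GS 1 and WT-GS 2 in WT-GS. In SirT7-/- the order matched only in part. KO-NT 1 was the highest of KO-NT and KO-GS 2 the lowest of KO-GS for the sum and both genes. The library labelled KO-NT 4 had a sum of 773 CPM and the lowest Gusb of KO-NT, 65.3 CPM. KO-GS 1 had the highest sum of KO-GS, 1178 CPM, while the library labelled KO-GS 3 had its highest Gusb and Arsb. Cln3, which was not called, followed the order of the sum in WT-GS, KO-NT and KO-GS. It was highest in WT-NT 3 and lowest in WT-NT 2 within WT-NT. The part of such cells in the values of Gusb, Arsb and Cln3 was not tested. In bulk RNA fewer cells of a type and less RNA per cell cannot be told apart.

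Among the 5 genes of lipid breakdown 1 rose and 0 fell, with a median log2 change of 0.28. Asah1, acid ceramidase, had the largest rise of the 34 members. It stood at 216, 217, 230.3 and 380.1 CPM in WT-NT 1 to 4 and at 574, 474 and 528 CPM in WT-GS 1 to 3. Even WT-NT 4 lay below the lowest starved library. Asah1 rose by 1.06 (SE 0.31) on the log2 scale, 2.08-fold (edgeR adjusted p = 0.0332). Lipa, the acid lipase that splits cholesteryl esters, stood at 99.2 ± 26.6 CPM in WT-NT against 149.8 ± 32.1 CPM in WT-GS, a log2 change of 0.64 (SE 0.30; edgeR adjusted p = 0.124). Psap had a log2 change of 0.28 (SE 0.16). Smpd1, acid sphingomyelinase, and Ppt1, which removes palmitate from proteins, had log2 changes of 0.12 (SE 0.13) and -0.078 (SE 0.11).

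**Figure D3:**
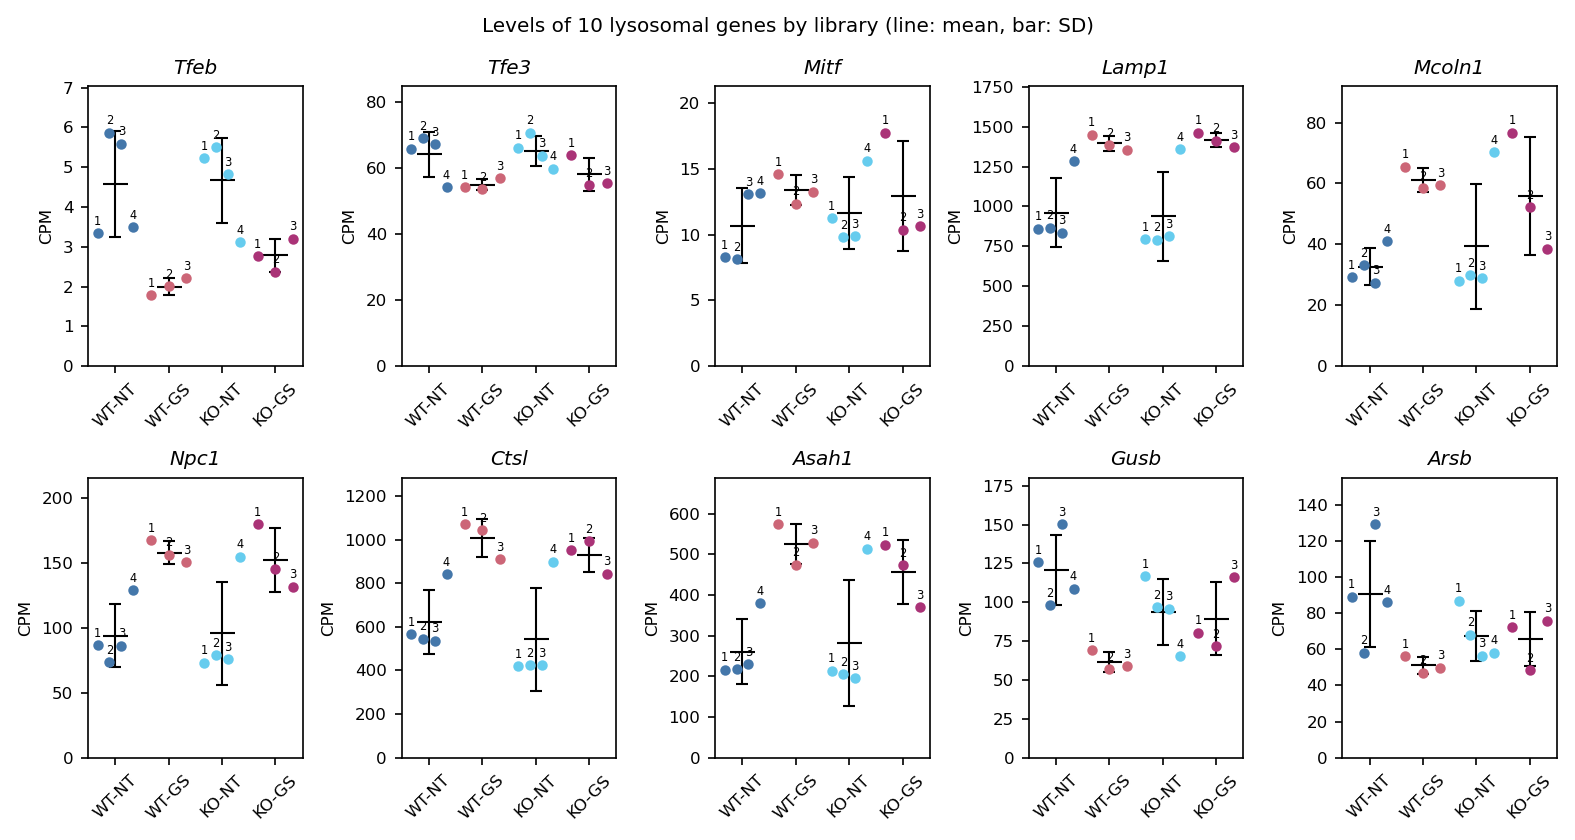
CPM of 10 members in every library, with the replicate number beside each point, the group mean as a line and the SD as a bar (n = 4 for WT-NT and KO-NT, n = 3 for WT-GS and KO-GS). In Lamp1, Npc1, Ctsl and Asah1 the libraries WT-NT 4 and KO-NT 4 stand above the other 3 of their groups, and in Gusb the library labelled KO-GS 3 stands at 116 CPM, above KO-GS 1 and 2.

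These counts depended on single libraries in the fit of all 4 groups. In that edgeR fit the members called were 0 without WT-NT 3, WT-GS 1, WT-GS 2 or WT-GS 3, where at most 1 of all genes was called. In those fits 9 to 10 of 34 members had an unadjusted p under 0.05, beside 5312 to 5752 of the 15609 to 15941 genes tested. In the wild-type groups fitted alone, leaving out WT-NT 3, WT-GS 1, WT-GS 2 or WT-GS 3 gave 7, 3, 5 and 6 members called. There 3863, 2841, 3353 and 2856 genes were called among 15087, 15462, 15570 and 15489 tested. Those wild-type fits were added after seeing the data. With all 4 groups, the members called were 2 without WT-NT 1, 3 without WT-NT 2, and 12 without WT-NT 4 or without KO-NT 4. Over all genes 8.77%, 13.2%, 31.1% and 36% were called there. DESeq2 on all libraries called 9 members and 36.7% of all genes. Scaling to library size alone gave 2 higher and 4 lower members, in place of 5 and 3, and 1496 higher and 2492 lower genes over all, in place of 2014 and 2049.

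In SirT7-/- fibroblasts the same comparison, with the libraries as labelled, gave no call in edgeR. With edgeR 0 of 34 members and 0% of all genes were called, and DESeq2 called 0 members and 255 genes. An unadjusted p under 0.05 in edgeR was found for 13 members, beside 2919 of the 15666 genes tested. The members' median log2 change was 0.41, against 0.0097 over all genes, and 28 of 34 changes were above 0. Libraries of KO-GS and KO-NT did not overlap for 4 members that were higher, Lamp1, Npc2, Ctsd and Glb1, and for 0 that were lower, where 5.94% and 6.45% of all genes did not overlap. Against KO-NT 1 to 3 alone, 22 members were higher and 1 lower without overlap, where 23.2% and 19.6% of all genes were.

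Values in single SirT7-/- libraries differed within the labelled groups. Lamp1 stood at 795, 793, 815 and 1358 CPM in KO-NT 1 to 4 and at 1462, 1413 and 1372 CPM in KO-GS 1 to 3. The library labelled KO-NT 4 lay with the starved libraries, close below them. The log2 change of Lamp1 was 0.57 (SE 0.19; edgeR adjusted p = 0.227), near its value in wild type.

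Asah1 stood at 214, 205, 195 and 514 CPM in KO-NT 1 to 4 and at 524, 474 and 370.1 CPM in KO-GS 1 to 3. Here the library labelled KO-NT 4 was above KO-GS 2 and 3, and the log2 change was 0.68 (SE 0.31; edgeR adjusted p = 0.271). Mcoln1 stood at 28.1, 29.9, 29.0 and 70.3 CPM in KO-NT 1 to 4 and at 76.7, 52.1 and 38.6 CPM in KO-GS 1 to 3. KO-NT 4 again exceeded KO-GS 2 and 3, and KO-GS 3 was the lowest of its group.

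Npc1 stood at 73.3, 79.2, 76.1 and 155 CPM in KO-NT 1 to 4 and at 180.1, 146 and 132 CPM in KO-GS 1 to 3, and Ctsl at 421, 424, 425 and 899 CPM and 953, 992 and 845 CPM in the same libraries. For both genes KO-NT 1 to 3 were low and close together, and KO-NT 4 lay within the range of KO-GS. Their log2 changes were 0.65 (SE 0.25) and 0.76 (SE 0.25), neither called.

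Tfeb stood at 5.22, 5.51, 4.83 and 3.11 CPM in KO-NT 1 to 4 and at 2.77, 2.37 and 3.21 CPM in KO-GS 1 to 3. The 4.83 to 5.51 CPM of KO-NT 1 to 3 lay above all starved libraries, while KO-NT 4 was below KO-GS 3. The log2 change was -0.77 (SE 0.27; edgeR adjusted p = 0.228). Tfe3 stood at 66.1, 70.6, 63.6 and 59.7 CPM and 63.9, 54.7 and 55.4 CPM, and Mitf at 11.2, 9.81, 9.86 and 15.6 CPM and 17.7, 10.4 and 10.6 CPM, in KO-NT 1 to 4 and KO-GS 1 to 3. The groups overlapped for both.

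Gusb stood at 117, 97.0, 96.0 and 65.3 CPM in KO-NT 1 to 4 and at 80.5, 71.8 and 116 CPM in KO-GS 1 to 3. The lowest value was in the library labelled KO-NT 4 and the highest starved value in the library labelled KO-GS 3, and the log2 change was -0.094 (SE 0.21). Arsb stood at 86.9, 68.1, 56.4 and 58.2 CPM in KO-NT 1 to 4 and at 72.2, 48.6 and 75.9 CPM in KO-GS 1 to 3, with overlapping groups and a log2 change of -0.066 (SE 0.24). The sign of both changes turned when 1 library was left out, Gusb reaching 0.033 and Arsb 0.099 without KO-GS 2, and 0.025 and 0.075 without KO-NT 1.

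**Figure D4:**
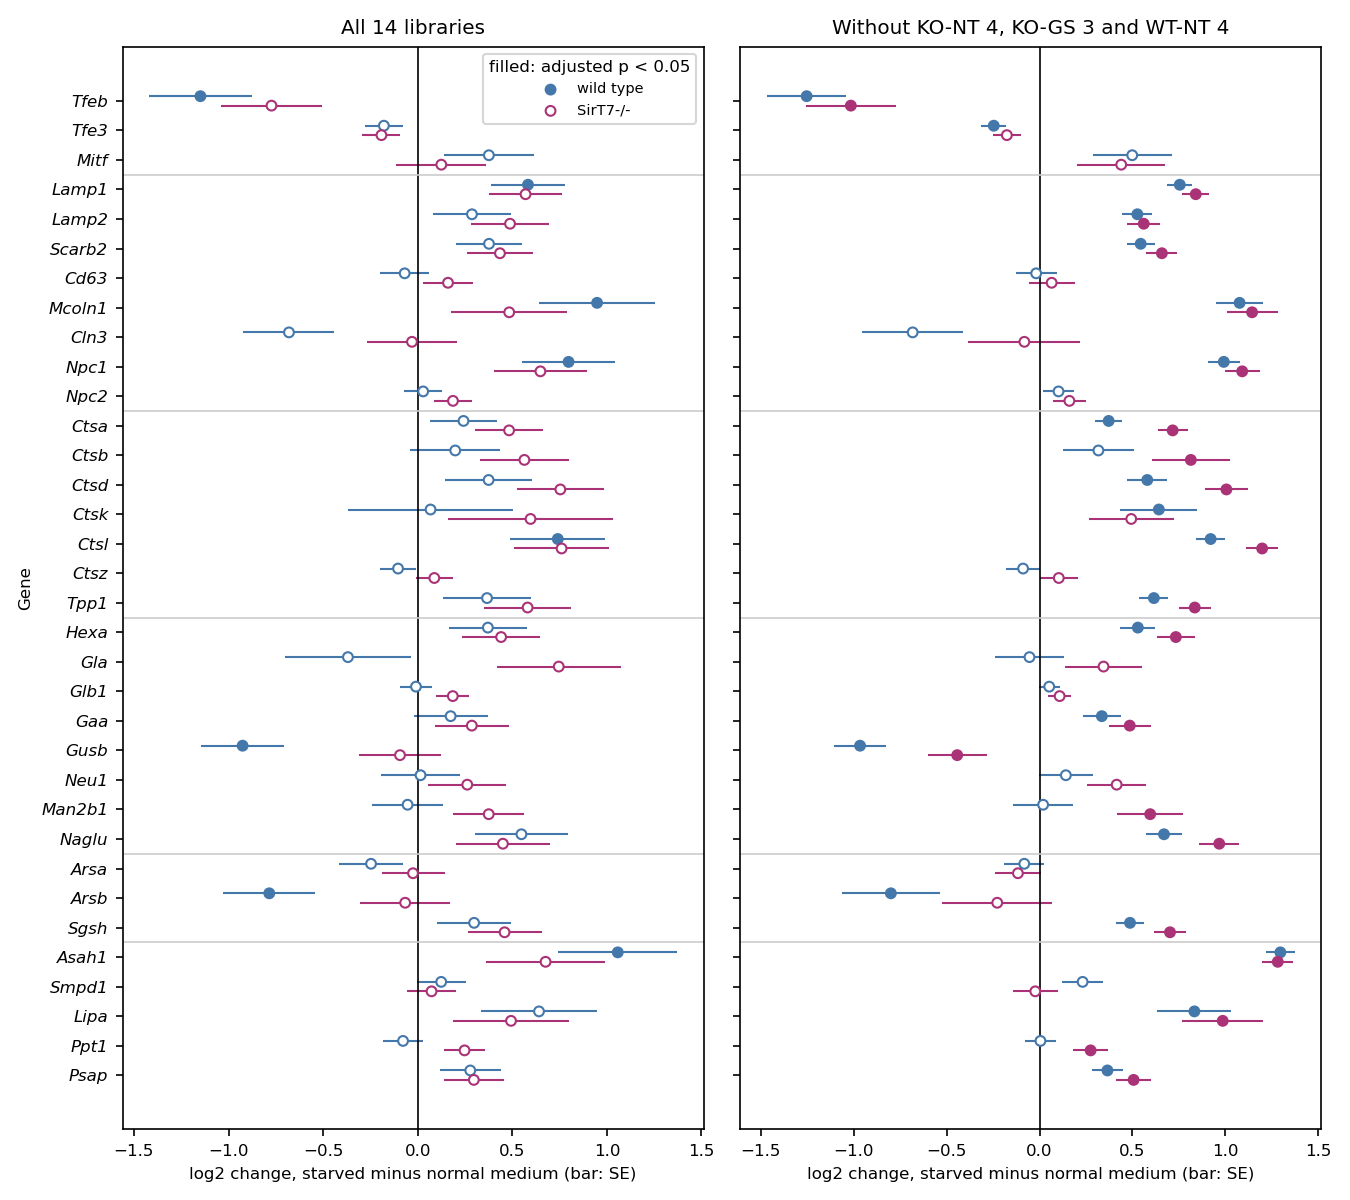
Log2 change of each member without glucose against normal medium in wild type (blue) and SirT7-/- (purple), with its SE as a bar and filled points for an edgeR adjusted p under 0.05, over all 14 libraries (left) and without 3 libraries (right). Filled points number 8 in wild type and 0 in SirT7-/- on the left, and 21 in each genotype on the right, where most members lie above 0 in both.

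In the fit without 2 libraries, those with the labels KO-NT 4 and KO-GS 3, 18 members were called in SirT7-/-, 17 higher and 1 lower, where 33.1% of all genes were called (18.6% higher, 14.5% lower). In wild type 13 were called, 10 higher and 3 lower, where 39.6% were (20.4% higher, 19.1% lower). Leaving out KO-NT 4 alone gave 19 members in SirT7-/-, where 21.1% of all genes were called. Leaving out KO-GS 3 alone gave 0, with 9 at an unadjusted p under 0.05, beside 4053 of 15912 genes. Without WT-NT 4 as well, 21 members were called in wild type, 17 higher and 4 lower, against 47.3% of all genes. In SirT7-/- 21 were called too, 19 higher and 2 lower, against 39.9% of all genes. Higher calls alone took 24.4% of all genes in wild type and 22.1% in SirT7-/-, and lower calls 22.9% and 17.8%. The members' median log2 change was 0.35 in wild type and 0.50 in SirT7-/-, against -0.011 and 0.030 over all genes.

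In that fit without 3 libraries, 16 members were higher in both genotypes and 2, Tfeb and Gusb, lower in both, where 19.2% and 15.6% of all genes were. All 8 members called over all libraries in wild type were among those called there. The 3 libraries were left out after their values were seen, which partly sets these calls. The membrane group gave 5 of 8 higher in each genotype (Lamp1, Lamp2, Scarb2, Mcoln1 and Npc1), and Cd63, Cln3 and Npc2 were not called in either. Of the 7 proteases Ctsa, Ctsd, Ctsl and Tpp1 were higher in both, Ctsk was called in wild type alone, Ctsb in SirT7-/- alone, and Ctsz in neither. Hexa, Gaa and Naglu rose in both among the glycosidases, while Gla, Glb1 and Neu1 were called in neither, and Man2b1 in SirT7-/- alone. Sgsh, Asah1, Lipa and Psap were higher in both, Ppt1 was called in SirT7-/- alone, and Arsa and Smpd1 were called in neither. A call in one genotype alone does not show a difference between them.

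In that fit Asah1 rose 2.46-fold in wild type and 2.43-fold in SirT7-/-, with edgeR adjusted p-values of 4.02e-06 and 1.29e-05. These values are partly set by the choice of libraries, made after their values were seen. WT-NT 4, left out there, had 380.1 CPM of Asah1, against 216 to 230.3 CPM in WT-NT 1 to 3. On the log2 scale Mcoln1 rose by 1.08 (SE 0.13) and 1.14 (SE 0.14), and Npc1 by 0.99 (SE 0.086) and 1.09 (SE 0.094). For Ctsd the log2 changes were 0.58 (SE 0.11) and 1.01 (SE 0.12), and for Ctsa 0.37 (SE 0.073) and 0.72 (SE 0.081). Tfeb changed by -1.25 (SE 0.21) and -1.02 (SE 0.24), and Gusb by -0.97 (SE 0.14) and -0.44 (SE 0.16). The difference between the genotypes' responses was called for 0 members there by edgeR, against 0.00635% of all genes, with 5 (Ctsa, Ctsd, Ctsl, Gusb and Man2b1) at an unadjusted p under 0.05 and the smallest adjusted p at 1.0. Over all genes 636 of 15754 had an unadjusted p under 0.05 there.

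The next comparisons set SirT7-/- against wild type in each medium. In normal medium edgeR called 0 members, against 0.00638% of all genes (Sirt7 itself), and DESeq2 called 0 members. An unadjusted p under 0.05 in edgeR was found for 0 members, beside 658 of the 15666 genes tested. The members' log2 changes ran from -0.43 (Gla) to 0.29 (Mcoln1), with a median of -0.10. For Lamp1 the log2 change was -0.0061, with a 95% interval of -0.40 to 0.38, and for Tfeb 0.059, with an interval of -0.46 to 0.58. The wild-type starvation change of Lamp1, 0.58, lies outside its interval.

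Ctsl had the smallest adjusted p between the genotypes among the members in the fit without 3 libraries. It stood at 423 ± 2.01 CPM (SD, n = 3) in KO-NT 1 to 3 and at 550.2 ± 15.9 CPM (SD, n = 3) in WT-NT 1 to 3, with no overlap. In that fit its log2 change between the genotypes in normal medium was -0.36 (SE 0.077; edgeR adjusted p = 0.237), not called. Ctsa, Ctsd, Hexa, Man2b1 and Naglu also had an unadjusted p under 0.05 there, with log2 changes of -0.26, -0.26, -0.23, -0.37 and -0.28, and none was called, where 0.0317% of all genes were. Without 2 libraries 0 members were called between the genotypes in normal medium, against 0.0252% of all genes, with 6 at an unadjusted p under 0.05. Over all genes such a p was found for 1256 of 15864 without 2 libraries and 1201 of 15754 without 3. DESeq2 was not run without these libraries.

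Without glucose, edgeR called 0 members between SirT7-/- and wild type, against 0.00638% of all genes, with 1 (Gusb) at an unadjusted p under 0.05 and 0 called by DESeq2. Over all genes 608 of 15666 had an unadjusted p under 0.05 in edgeR. Gusb had a log2 change of 0.50 (SE 0.23) with all libraries, and the library labelled KO-GS 3 was the highest. The members' median log2 change was 0.068, and for Lamp1 the 95% interval was -0.47 to 0.43. In the fits without 2 and 3 libraries edgeR also called 0 members, against 0.0063% and 0.0127% of all genes, with 0 in each at an unadjusted p under 0.05. Such a p was found there for 348 of 15864 and 513 of 15754 genes.

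The last comparison tests whether the responses differ between the genotypes. Over all libraries edgeR called 0 members and 0% of all genes, and DESeq2 called 0 members. An unadjusted p under 0.05 in edgeR was found for 2 members, beside 950 of the 15666 genes tested. The 2 were Gusb, whose response was higher in SirT7-/- by 0.83 (SE 0.30; adjusted p = 0.680), and Gla, higher by 1.11 (SE 0.47; adjusted p = 0.680). Gla stood at 34.7, 20.7 and 62.2 CPM in KO-GS 1 to 3 and at 24.97, 23.9, 27.3 and 50.03 CPM in WT-NT 1 to 4. KO-GS 3 and WT-NT 4 held its 2 highest values, and without 3 libraries the difference for Gla was 0.40 (SE 0.28).

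The lysosomal genes and the other starvation genes placed 2 libraries differently. The other starvation genes were called with WT-NT 4 counted in WT-NT, so the low position of WT-NT 4 is partly set by that choice. The 34 members took 0.732 to 0.925% of all counts in WT-NT 1 to 3 and KO-NT 1 to 3, and 1.09 to 1.29% in WT-GS 1 to 3 and KO-GS 1 and 2. The library labelled KO-NT 4, with 1.21%, lay with the latter on both measures. WT-NT 4 took 1.22% and the library labelled KO-GS 3 took 1.26%, as much as the starved libraries, while their positions along the other starvation genes were 0.111 and 0.183 and their Hspa5 levels were the lowest of the 14 libraries. WT-NT 4 was above all of WT-NT 1 to 3 in 27 of 34 members and below them in 1 (Tfe3), where 36.4% and 28.9% of all genes were. KO-GS 3 was above all of KO-NT 1 to 3 in 28 members and below in 2 (Tfeb and Tfe3), where 41.7% and 35.6% of all genes were. KO-NT 4 was above KO-NT 1 to 3 in 27 members and below in 4 (Tfeb, Tfe3, Gusb and Smpd1), where 44.1% and 38% of all genes were.

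WT-NT 4 and KO-GS 3 shared further members at high level. Ctsk reached 244 CPM in WT-NT 4 and 233 CPM in KO-GS 3, against 71.2 to 158 CPM in the other 12 libraries. Gla reached 50.03 and 62.2 CPM, against 18.1 to 34.7 CPM elsewhere. Glb1 reached 45.7 and 47.8 CPM, Arsa 82.4 and 69.3 CPM, and Smpd1 69.9 and 73.0 CPM, in each case the 2 highest of the 14 libraries. Mcoln1 and Asah1, in contrast, were intermediate there, at 41.0 and 38.6 CPM and at 380.1 and 370.1 CPM. These are descriptions of single libraries, and what sets them apart was not tested.

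**Figure D5:**
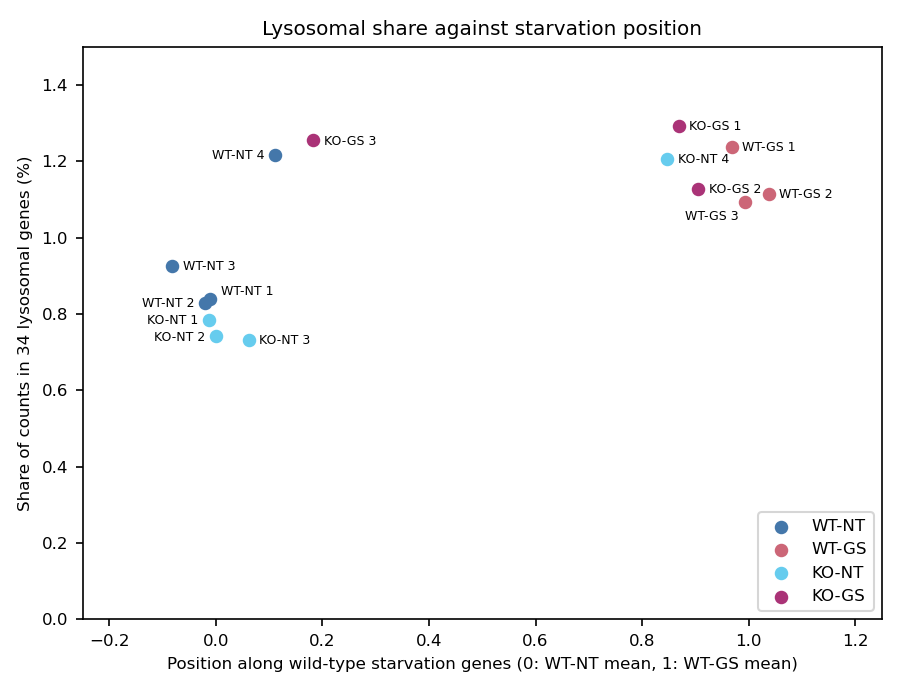
Share of each library's counts taken by the 34 members (percent) against its position along 5096 starvation genes of wild type, from which listed lysosomal genes were left out (0 is the mean of WT-NT, 1 the mean of WT-GS). WT-NT 4 and the library labelled KO-GS 3 stand at a high share, 1.22 and 1.26%, with positions of 0.111 and 0.183, apart from the other libraries. The starvation genes were called with WT-NT 4 in WT-NT, which partly sets its position.

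Further lysosomal genes, 91 in 5 lists chosen by function, were set beside the members. Over all libraries in wild type 15 of 91 were higher and 6 lower, beside 12.9% and 13.1% of all genes, with a median log2 change of 0.23, against -0.039 over all genes, and in SirT7-/- 0 were called by edgeR. Without 3 libraries, 48 were higher and 12 lower in wild type, and 55 and 7 in SirT7-/-, beside 24.4% and 22.9% of all genes in wild type and 22.1% and 17.8% in SirT7-/-. The V-ATPase, the proton pump that acidifies the lysosome, had 8 of 17 subunits higher and 1 lower in wild type, with a median of 0.45, and 14 higher and 1 lower in each genotype without 3 libraries. Its peripheral subunits Atp6v1h and Atp6v1c1 rose by 0.68 (SE 0.16; adjusted p = 0.0245) and 0.72 (SE 0.19; adjusted p = 0.0260) and the membrane subunit Atp6v0e by 0.34 (SE 0.082; adjusted p = 0.0245), all by edgeR.

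The counts in the remaining lists stand beside the same 12.9% of all genes higher and 13.1% lower. Other hydrolases gave 2 of 31 higher and 3 lower, with a median of 0.18. Ctsc, the dipeptidyl peptidase that activates serine proteases of immune cells, fell by 1.96 on the log2 scale (SE 0.47; edgeR adjusted p = 0.0245), from 158 ± 73.5 to 39.3 ± 15.8 CPM (SD, n = 4 and 3), while the macrophage markers above also differed, and their part was not tested. Hgsnat, an acetyltransferase of heparan sulfate breakdown, rose by 0.39 (SE 0.097), and Hyal2, a hyaluronidase, fell by 0.61 (SE 0.17). Other membrane proteins gave 4 of 20 higher and 1 lower, among them Tmem192 at 0.57 (SE 0.16), Ncstn, a γ-secretase subunit, at 0.45 (SE 0.12), and Tpcn2, a cation channel, at -0.77 (SE 0.20). Mannose 6-phosphate tagging and sorting gave 0 of 11 higher and 1 lower, the adaptor Gga2 at -0.55 (SE 0.13).

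The Rag, Ragulator and folliculin complexes, which link lysosomal nutrients to mTORC1, gave 1 of 12 higher, Fnip1, at 0.89 (SE 0.27; edgeR adjusted p = 0.0356). Rragd, a Rag GTPase, had a log2 change of 2.04 (SE 0.96; edgeR adjusted p = 0.121) over all libraries and was not called. Without 3 libraries it rose by 3.03 in wild type (edgeR adjusted p = 3.35e-05) and 4.17 in SirT7-/- (edgeR adjusted p = 1.98e-05), more than any of the 34 members.

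The E-box letters were set beside the responses by count alone. Of the 12 members with CACGTG in the window 3 rose and 0 fell in wild type over all libraries, with a median log2 change of 0.27 and a range of -0.68 to 0.95. Of the 19 matched members without it 0 rose and 3 fell, with a median of 0.029 and a range of -1.15 to 0.64. Npc1, Asah1 and Ctsb had no promoter entry and are in neither count, though Npc1 and Asah1 rose as well. Over all genes 12.9% were higher and 13.1% lower. Without 3 libraries, 8 of 12 were higher and 0 lower in each genotype, against 7 of 19 higher and 4 lower in wild type and 8 higher and 2 lower in SirT7-/-. Over all genes 24.4% were higher and 22.9% lower in wild type there, and 22.1% and 17.8% in SirT7-/-. Members with the letters include Cln3, whose log2 change in wild type was -0.68. Members without them include Lipa, at 0.64, so the ranges overlap, and the difference was not tested. The part of macrophages in the values of Cln3 was not tested either.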

How the data were processed

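RNA of mouse embryonic fibroblasts (14 libraries) was extracted with an RNeasy kit and made into libraries with a TruSeq RNA v2 kit, per the labels' protocols. Tools named in the submitters' processing notes are StringTie 1.3.3, HISAT2 2.1.0, Trimmomatic 0.36, FastQC 0.11.3, SAMtools and DESeq2 1.18.1, with genome build mm9. Strand setting and annotation are not given in the sources used here, so reads of a gene and of an antisense partner cannot be told apart. Values are estimated counts per gene, which the authors deposited whole and without normalization, with StringTie named in the submitters' processing notes. The table lists 24015 symbols, of which 27 appear as dates and 4225 had 0 in all libraries.

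Counts were fitted with edgeR 4.0.16 (R 4.3.3): robust quasi-likelihood F-test, TMM, 1 mean per group over all 14 libraries, and filterByExpr (minimum count 10, minimum total 15), which left 15666 genes. P-values were adjusted over all of them by Benjamini-Hochberg, and the threshold for a call was an adjusted p under 0.05. The SE was worked back from the F-test and shares the spread of all libraries in the fit. CPM is the count relative to the library total, with no TMM factor. A count of 0 would allow up to 3 counts, 0.0327 to 0.0502 CPM, and the lowest count of any member was 120. Such limits cover counting error only.

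Members, lists and tests were chosen with earlier results of these data known. Values in every library are given for the TFEB factors, Lamp1 and the called members, and of each wider list at most 3 genes with the smallest p in wild-type starvation. Alternatives were DESeq2 1.42.0, library size alone, RLE normalization, no filter, a fit of only the groups compared, a block for the replicate number, and fits without each library. Added after seeing the data were fits without 2 or 3 libraries and wild-type fits without each library. The fit was tested on simulated data.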

Additional observations from a re-analysis of the deposited data

Results flagged for a closer look

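In 23 of 68 pairs of a member and a group (WT-NT or KO-NT), the value in 1 library stood far from the other 3 of its group, by the gap to the nearest divided by the group's range, above Dixon's 95% critical value for 4 libraries. Chance gives this in about 1 in 20 groups if the pairs are independent, which pairs that share a library are not. In all 23 the library that stood apart was the highest of its group, WT-NT 4 in 8 and the library labelled KO-NT 4 in 15. Over all genes, WT-NT 4 lay above WT-NT 1 to 3 in 36.4%, and KO-NT 4 above KO-NT 1 to 3 in 44.1%. The gap rule itself was not applied to all genes.

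WT-NT 4 stood apart for Lamp1 at 1284 CPM, Lamp2 at 774 CPM, Ctsa at 383 CPM, Ctsk at 244 CPM, Ctsl at 840.3 CPM, Tpp1 at 340.0 CPM, Gla at 50.03 CPM and Asah1 at 380.1 CPM. The library labelled KO-NT 4 stood apart among the membrane proteins for Lamp1 at 1358 CPM, Scarb2 at 104 CPM, Mcoln1 at 70.3 CPM and Npc1 at 155 CPM. Among the proteases it stood apart for Ctsa at 389 CPM, Ctsd at 1644 CPM, Ctsl at 899 CPM and Tpp1 at 308 CPM. It did so as well for the glycosidases Hexa at 267 CPM, Neu1 at 52.6 CPM and Naglu at 35.0 CPM, for the sulfamidase Sgsh at 46.8 CPM and, among the lipid genes, for Asah1 at 514 CPM, Lipa at 181 CPM and Psap at 1598 CPM. The cause was not tested.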

How the results depend on the processing

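In wild-type starvation the 8 members called (4063 genes over all) became 21 (6633) with the replicate block, 13 (6280) without 2 libraries and 21 (7444) without 3. In the wild-type groups alone they were 22 (6668 genes) without WT-NT 4, 3 without WT-GS 1 and 5 without WT-GS 2. Leaving out each library in turn gave 0 to 12 members and 0 to 5621 genes, and, in the wild-type groups alone, 3 to 22 members and 2841 to 6668 genes. In SirT7-/- starvation the 0 members called became 21 (3096 genes) with the block, 18 (5251) without 2 libraries and 21 (6291) without 3, DESeq2 called 255 genes, and leaving out 1 library gave 0 to 19 members and 0 to 3301 genes. Between genotypes in normal medium the 1 gene called became 23 (DESeq2), 2 (RLE), 2 (block), 4 and 5 (without 2 and 3 libraries), and 1 to 3 without 1 library. Without glucose it became 7 (DESeq2), 2 (without 3 libraries) and 1 to 2. For the difference of responses 0 became 5 (DESeq2), 1 (without 3 libraries) and 0 to 1. Members called stayed at 0 in these 3 comparisons under every alternative run. The causes were not tested.

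Replicate numbers were not taken to pair the libraries, since deviations of same-numbered libraries correlated by -0.12 to 0.46 and not all above 0.1. In SirT7-/- the sign of 4 uncalled changes turned on leaving out 1 library, over which Mitf ranged from -0.15 to 0.29, Gusb from -0.32 to 0.033, Arsb from -0.18 to 0.099 and Cln3 from -0.24 to 0.22. Of 29 alternatives, calls in wild type were lost in 4 for Gusb, 6 for Asah1, 7 each for Tfeb, Mcoln1 and Npc1, 10 for Arsb, 14 for Ctsl and 18 for Lamp1, with no sign turned. The lowest count of any member in a library was 120.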
